A study of Mus musculus with 8 samples.

Results

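Fnip1, folliculin (Flcn), the subunits of AMP-activated protein kinase (AMPK), the tuberous sclerosis genes Tsc1 and Tsc2 and the GTPase gene Rheb were examined in mouse aortic smooth muscle cells given a moR-21 mimetic. The set has 10 genes, and its members were all probes that the array table lists under those symbols. They were 13 of the 25697 probes and covered 8 of the 18138 gene symbols. The symbols Fnip2 and Prkaa1 named no probe, and those genes were not analysed here.

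The cells were primary cultures grown out of pieces of several mouse aortas, and they carried no label of genotype or age. In one treatment they were transfected with the moR-21 mimetic and in the other with a scrambled control oligo, both with RNAiMAX at 5 nM, and RNA was taken after 48 h. Each treatment had 3 samples, and control sample 1 and moR-21 sample 3 had 2 arrays each (A and B), which gave 8 Illumina arrays. The labels do not say whether the 3 samples of a treatment came from separate cultures, so p-values measure only the spread between these samples, which may be technical.

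AMPK is a kinase of 1 catalytic and 2 regulatory subunits that is switched on when cellular energy is low. Folliculin, the product of the Birt-Hogg-Dubé syndrome gene, works with its partners Fnip1 and Fnip2, which also bind AMPK, and as a complex it acts on the Rag GTPases that bring mTORC1 to the lysosome. Tsc1 and Tsc2 form the complex that switches Rheb off, and active Rheb turns mTORC1 on, so the set holds both arms of mTORC1 control.

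MoR-21 is a small RNA cut from the primary transcript of miR-21, next to the mature miRNA. The RefSeq hairpin of Mir21a (GRCm38.p6, chr11:86584067-86584158, minus strand) and its mature miR-21a-5p (chr11:86584120-86584141, minus strand) are shown so that the treated RNA can be told from its neighbour. The hairpin is 92 bases long, and 17 bases lie before miR-21a-5p. Capitals in the hairpin mark GUACC, the core that the first seed windows of moR-21 share in the study's design, and capitals in the miRNA mark its seed, bases 2 to 8. Those windows place the first base of moR-21 before the start of this hairpin, so the treated RNA is shown only in part. GUACC occurs 1 time in the hairpin and not in miR-21a-5p.
Mir21a hairpin: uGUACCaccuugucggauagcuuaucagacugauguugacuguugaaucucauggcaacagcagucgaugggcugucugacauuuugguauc
mmu-miR-21a-5p: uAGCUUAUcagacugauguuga

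The series' arrays were alike in overall brightness, with a median intensity of 102 to 109 and 10285 to 10512 probes with a detection p under 0.01. A detection p is the share of negative control beads that are as bright as the probe. All values below are log2 signals after quantile normalization, with arrays A and B of a sample averaged. A probe was tested if its detection p was under 0.01 on at least 1 array (11651 probes), and it was called at the study's cutoffs, a fold change over 1.3 (0.38 on the log2 scale) and a limma adjusted p under 0.002. One description names endothelial cells where the cell type label names smooth muscle cells. Of 6 endothelial markers only Vwf was detected, while Pecam1, Cdh5, Kdr, Tek and Tie1 were detected on no array. Of 6 macrophage markers Csf1r and Cd14 were detected, and all 5 fibroblast markers were. Of 7 smooth muscle markers 4 were detected (Acta2, Tagln, Des and Smtn), with Tagln on only 4 arrays. Myl9 had no probe, and the contractile genes Cnn1 and Myh11 were detected on no array.

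Fnip1 and Tsc2 fell and Flcn and Rheb rose after the moR-21 mimetic, each by less than the fold cutoff. Of the 13 member probes 10 were tested, for 7 genes, and 9 probes of 6 genes were detected on all 8 arrays. Limma called 0 of the 10 probes lower, where 3.85% of all tested probes were called lower, and 0 higher, where 3.12% were. At an adjusted p under 0.05 with no fold cutoff, 2 genes were lower (4 probes) against 16% of all probes, and 2 were higher (3 probes) against 17.9%. The same 7 probes had an unadjusted p under 0.05. They were also the 7 probes whose treated samples lay wholly on one side of the controls, 4 below them, where 21.2% of all probes did so, and 3 above, where 23.7% did. The median log2 change of the 7 member genes, each read at its brightest probe, was 0.01, and that of all 8727 tested genes was also 0.01. In bulk RNA, a loss of cells that express a gene and less of its RNA per cell cannot be told apart.

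**Figure D1:**
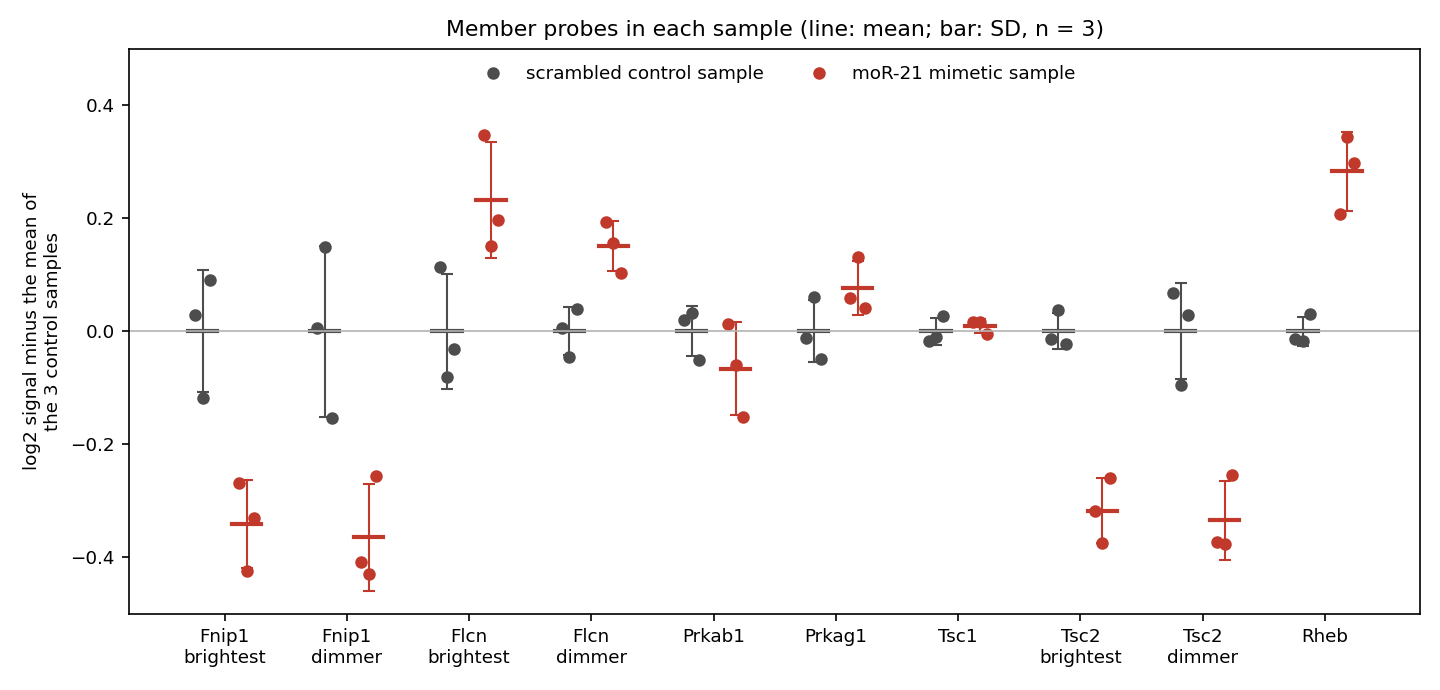
Log2 signal of the 10 tested member probes in the 3 scrambled control samples (grey) and the 3 moR-21 mimetic samples (red), each as the difference from the mean of the control samples; thick lines are means and bars the SD (n = 3). The treated samples lie below all controls for both probes of Fnip1 and Tsc2 and above all controls for both probes of Flcn and the probe of Rheb, and they overlap for Prkab1, Prkag1 and Tsc1.

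Fnip1 (GRCm38.p6, chr11:54438107-54518241) is on the same chromosome as Mir21a. It was among the candidate moR-21 targets that the study picked with these same samples in hand, so its direction here is not independent evidence. The study listed Fnip1 as lower past the fold cutoff of 1.3 on these arrays, while its 2 probes here had signed folds of −1.27 and −1.29. With normexp background correction they changed by −0.39 and −0.49 on the log2 scale, past that cutoff, though neither was called. What made the study's value and these differ was not tested. The study also reported lower Fnip1 RNA after the mimetic by quantitative PCR, a separate measurement. The brightest Fnip1 probe, ILMN_2725155, read 9.63, 9.48 and 9.69 in control samples 1 to 3 and 9.33, 9.17 and 9.27 in moR-21 samples 1 to 3. The lowest control sample was above the highest treated sample. The change was −0.34 on the log2 scale (standard error 0.060, 95% interval −0.47 to −0.21, limma adjusted p = 5.28e-04), a change in signal of −21.1% (interval −27.8% to −13.7%). Counted from the largest fall, it ranked 551 among the 11651 tested probes, at percentile 4.73.

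The dimmer Fnip1 probe, ILMN_2854418, read 8.53, 8.68 and 8.37 in the controls and 8.12, 8.10 and 8.27 in the treated samples. These sample means did not overlap either, but single arrays did, since array B of moR-21 sample 3 read 8.39, above control sample 3, while array A of the same sample read 8.15. The change was −0.37 (standard error 0.070, interval −0.52 to −0.21, limma adjusted p = 0.0011). With array A alone for both repeated samples it was −0.44 (limma adjusted p = 1.91e-04) and was called, against 3.95% of probes called lower on those arrays. With array B alone it was −0.29 (limma adjusted p = 0.0224) and was not called. It was also called without control sample 3 (−0.44) and without moR-21 sample 3 (−0.42), and the brightest probe was called without control sample 2 (−0.40). In the deposited intensities, before normalization, the brightest probe spanned 655 to 889 on the control arrays and 551 to 659 on the treated arrays, which overlapped slightly. Exact two-sided permutation of the 6 samples gave p = 0.1 for either Fnip1 probe, the smallest value that 3 against 3 samples can give.

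Flcn (chr11:59791408-59810039), whose protein is the partner of Fnip1, moved the other way. Its brightest probe read 10.72, 10.52 and 10.57 in the controls and 10.95, 10.76 and 10.80 in the treated samples. All 3 treated samples were higher, though the gap between the highest control and the lowest treated sample was small. The rise was 0.23 (standard error 0.062, interval 0.10 to 0.37, limma adjusted p = 0.0104), a change of 17.4%. The dimmer probe read 7.24, 7.19 and 7.27 in the controls and 7.42, 7.39 and 7.34 in the treated samples, a rise of 0.15 (standard error 0.047, limma adjusted p = 0.0238). The brightest probe missed an adjusted p of 0.05 with normexp background correction (0.0665), with median scaling (0.0908), without control sample 2 (0.0551) and without moR-21 sample 1 (0.0504). The dimmer probe read 0.32 with normexp, and its adjusted p lay between 0.0530 and 0.0913 with median scaling and without control sample 1, control sample 2, moR-21 sample 1 or moR-21 sample 2.

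The AMPK subunits were measured in part. Prkaa2, a catalytic subunit, had 2 probes, and neither was detected on any array, with detection p between 0.0877 and 0.975, so no change is given. Prkab1, the β1 subunit that carries the glycogen-binding domain, read 8.17, 8.18 and 8.10 in the controls and 8.16, 8.09 and 7.996 in the treated samples. Its treated samples overlapped the controls, and the change was −0.07 (interval −0.18 to 0.05, limma adjusted p = 0.374). Prkag1, the γ1 subunit that senses AMP, read 9.03, 9.10 and 8.996 in the controls and 9.10, 9.18 and 9.08 in the treated samples. These also overlapped, and the change was 0.08 (interval −0.03 to 0.18, limma adjusted p = 0.258). Both intervals lie inside the fold cutoff of 1.3, and neither shows that the subunits were equal in the 2 treatments.

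Tsc2 read lower, while its partner Tsc1 was too near the detection limit to be compared with it. Tsc2 (chr17:24595816-24632676), the GTPase-activating subunit that acts on Rheb, was measured by 2 probes with different transcript variants in their annotation. The brightest read 10.60, 10.65 and 10.59 in the controls and 10.30, 10.24 and 10.36 in the treated samples. Every treated sample lay below every control by more than the spread within either treatment. The change was −0.32 (standard error 0.048, interval −0.42 to −0.21, limma adjusted p = 1.52e-04), or −19.8%.

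The dimmer Tsc2 probe read 10.10, 9.94 and 10.06 in the controls and 9.66, 9.66 and 9.78 in the treated samples, a change of −0.33 (standard error 0.055, limma adjusted p = 3.23e-04). The 2 probes thus gave nearly the same change, and the dimmer one was called without control sample 2 (−0.38). Tsc1 (chr2:28640993-28691172), the scaffold that stabilizes Tsc2, was near the detection limit, with a detection p under 0.01 on 1 of 8 arrays. It read 6.77, 6.78 and 6.82 in the controls and 6.80, 6.80 and 6.78 in the treated samples, a difference of 0.01 (interval −0.09 to 0.10, limma adjusted p = 0.907) whose sign turned with array A alone (−0.01). At that signal a change in Tsc1 was not detectable, which does not show that there was none.

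Rheb (chr5:24802823-24842361), the GTPase that Tsc2 switches off, rose. Its detected probe read 9.77, 9.76 and 9.81 in the controls and 9.99, 10.12 and 10.08 in the treated samples. The 3 controls were close together, and every treated sample lay above them. The rise was 0.28 (standard error 0.049, interval 0.18 to 0.39, limma adjusted p = 4.79e-04), or 21.7%. A second Rheb probe was not detected on any array. The 2 arrays of control sample 1 differed by almost as much as the treatments did, with 9.89 on array A and 9.64 on array B, and with array A alone the rise was 0.23.

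Exact two-sided permutation over the 6 samples gave p = 0.1, its smallest possible value, for each of the brightest probes of Flcn, Tsc2 and Rheb, and 0.2 for Prkab1, 0.3 for Prkag1 and 0.6 for Tsc1. Across 16 alternative settings of processing or of the samples used, 3 to 4 of the member genes had a limma adjusted p under 0.05, and Fnip1, Tsc2 and Rheb were among them each time.

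**Figure D2:**
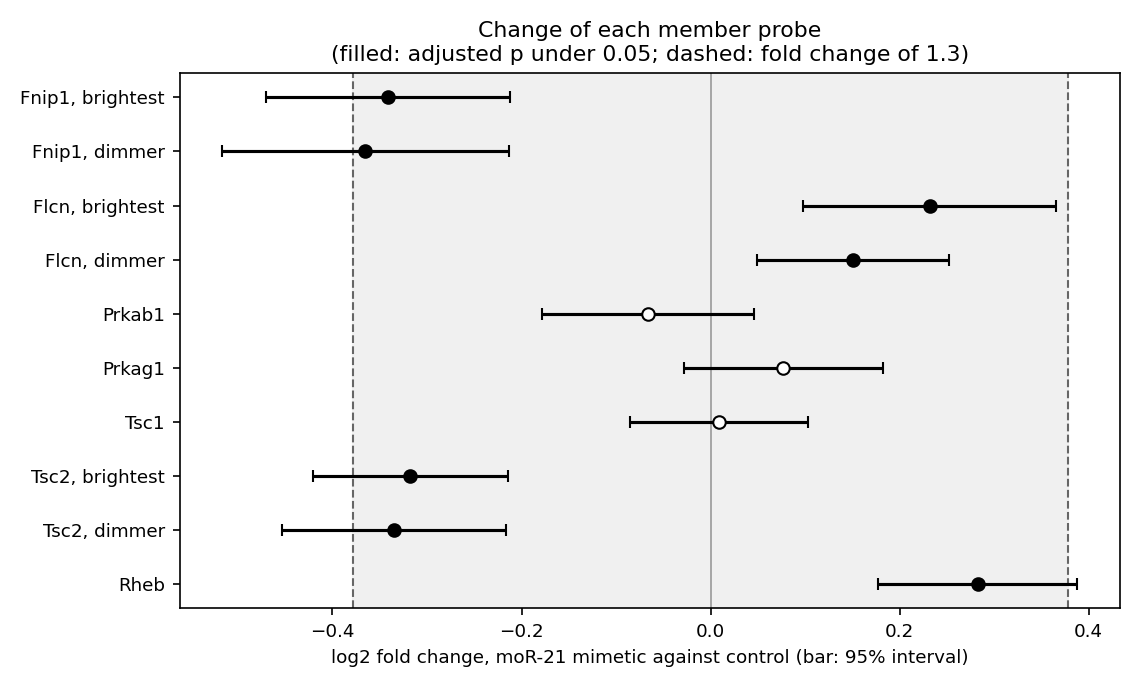
Log2 fold change of each tested member probe, moR-21 mimetic against scrambled control (n = 3 and 3 samples), with its 95% interval from limma; dashed lines mark a fold change of 1.3 and filled points an adjusted p under 0.05. All 10 points lie between the dashed lines, and the intervals of Fnip1, Tsc2 and Rheb cross one of them.

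**Figure D3:**
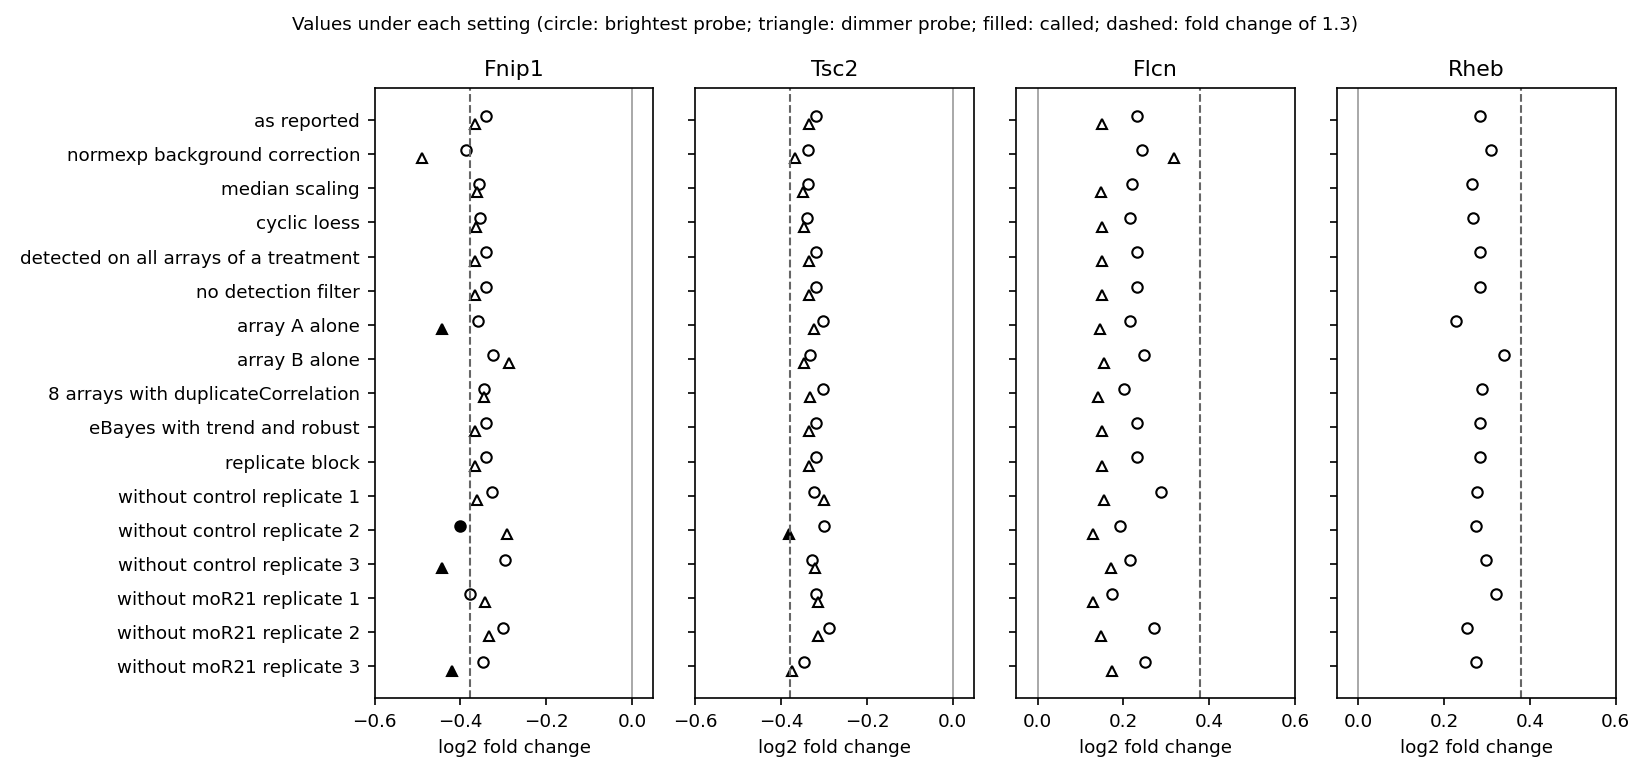
Log2 fold change of Fnip1, Tsc2, Flcn and Rheb under each processing setting and with each sample left out (circles, brightest probe; triangles, dimmer probe; filled, called at both cutoffs; dashed line, fold change of 1.3). No point crosses 0, and filled points appear for Fnip1 with array A alone and with control 2, control 3 or moR-21 sample 3 left out, and for the dimmer Tsc2 probe with control 2 left out.

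Within each sample, the members could also be read against one another as a difference of log2 signals, set to 0 at the control mean. The pairs were chosen after the values were seen, so they are given as a description. Rheb relative to Tsc2, its negative regulator, was 0.00, −0.05 and 0.05 in the controls and 0.52, 0.72 and 0.56 in the treated samples, a mean shift of 0.60 (SD 0.054 in controls and 0.104 in treated samples, n = 3). Flcn relative to its partner Fnip1 was 0.08, 0.04 and −0.12 in the controls and 0.62, 0.58 and 0.53 in the treated samples, a mean shift of 0.57 (SD 0.109 and 0.045). In both pairs the treated samples lay above all controls. That was fixed by the choice of pairs, since the treated samples lay above all controls for Rheb and Flcn and below them for Tsc2 and Fnip1. Fnip1 relative to Tsc2 shifted by −0.02, less than the SD in either treatment (0.140 and 0.064).

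Mitf, Tfeb and Tfe3, transcription factors that folliculin keeps under control, bind E-box sites such as CACGTG, and the RefSeq promoter windows of the 10 members were searched for those letters. CACGTG is its own reverse complement, so a match counts for both strands. Windows ran from 250 bases before to 50 after a transcript start site chosen in the RefSeq table, 300 bases in all. In 5 of the 10 members, Rheb among them, that site is the outermost start of the gene, and in the other 5, Fnip1 among them, it lies inside the gene. It was found in 2 of 10 member windows and in 7.15% of all 32851 windows. The 2 stretches of 30 bases with the match in capitals are shown because their genes moved in opposite directions, Fnip1 falling and Rheb rising. A match is a string of letters and not a site shown to be bound.
Fnip1 (GRCm38.p6, chr11:54438092-54438121, plus strand; the match begins 75 bases before the window's start site at 54438179 and 3 bases before the gene's outermost start at 54438107): tcagtttgctgcCACGTGatacggctcgtc
Rheb (GRCm38.p6, chr5:24842440-24842469, minus strand; the match begins 96 bases before the start site at 24842361): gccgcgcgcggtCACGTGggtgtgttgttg

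The other genes of the pathway were read from 7 lists of 84 genes, of which 80 had a probe and 63 were tested. Of these 63, limma called 3 lower and 3 higher, and 19 were lower and 12 higher at an adjusted p under 0.05. The calls were 4.76% of the genes in each direction, beside 3.85% lower and 3.12% higher over all tested probes, and at an adjusted p under 0.05 the shares were 30.2% lower and 19.0% higher, beside 16% and 17.9%. Their median log2 change was −0.06, beside 0.01 over all tested genes. The lists, like the members, were chosen with earlier results of these data known. Their shares, here and below, are therefore a description and not independent evidence. List shares count genes at their brightest tested probe, while the shares beside them count all tested probes, so the units differ.

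Among 8 genes for other AMPK subunits and its upstream kinases, 5 were tested and none was called in either direction. At an adjusted p under 0.05, 1 was lower (20%, beside 16% of all probes), also the only one at an unadjusted p under 0.05. That gene was Camkk2, the calcium-dependent kinase that activates AMPK, whose signal was 7.87, 7.86 and 7.75 in the controls and 7.63, 7.66 and 7.57 in the treated samples (change −0.20, standard error 0.050, limma adjusted p = 0.00566; −0.34 with normexp). Of 6 tested AMPK substrates none was called, and 1 was lower at an adjusted p under 0.05 (16.7%, beside 16% of all probes). Tbc1d1, a Rab GTPase regulator of glucose transporter traffic, was that gene (−0.13, limma adjusted p = 0.0365) and the only one at an unadjusted p under 0.05. Its adjusted p was above 0.05 with median scaling (0.0633), array A alone (0.0531), array B alone (0.0544) and 5 of the 6 samples left out in turn (0.0745 to 0.103), and with normexp the change was −0.41.

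The Rag GTPase, Ragulator and GATOR genes, which hold mTORC1 at the lysosome and tell it of amino acids, moved in both directions. Of 13 tested, 1 was called lower and 1 higher (7.69% each, beside 3.85% and 3.12% of all probes), and 3 were lower (23.1%, beside 16%) and 5 higher (38.5%, beside 17.9%) at an adjusted p under 0.05. Both called genes encode subunits of Ragulator. Lamtor2, listed on the array as Robld3, went from 7.22, 7.30 and 7.50 in the controls to 6.86, 6.93 and 6.96 (−0.42, standard error 0.065, limma adjusted p = 1.70e-04). Lamtor4, listed as 0910001L09Rik, went from 10.76, 10.66 and 10.88 to 11.10, 11.20 and 11.20 (0.40, standard error 0.059, limma adjusted p = 1.11e-04). Neither gene's samples overlapped between treatments, and the calls were lost without control sample 3 for Lamtor2 (−0.34, though −1.06 with normexp) and without control sample 2 (0.35), with normexp (0.42, limma adjusted p = 0.00542) and with median scaling (0.39, limma adjusted p = 0.00264) for Lamtor4.

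The mTOR complexes and Tsc partners held the largest rise of the lists. Tbc1d7, the third subunit of the Tsc complex, went from 8.44, 8.44 and 8.57 in the controls to 9.01, 8.98 and 9.11 in the treated samples. All treated samples were above all controls, and the rise was 0.55 (standard error 0.054, limma adjusted p = 3.23e-06), with 0.62 on its other tested probe. Of the 3 subunits of the Tsc complex, Tbc1d7 therefore read higher and Tsc2 lower, while a change in Tsc1 was not measurable at its signal. Of the 8 genes tested in that list, 1, Tbc1d7, was called higher (12.5%, beside 3.12% of all probes), and 0 were called lower (beside 3.85%). In that list 4 were lower (50%, beside 16%) and 1 was higher (12.5%, beside 17.9%) at an adjusted p under 0.05. Among the lower genes was Mlst8, a subunit of both mTOR complexes listed as Gbl (−0.23, limma adjusted p = 0.00246, and −0.23 to −0.20 over its 3 probes).

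Of 7 tested inhibitors of mTORC1 under stress or amino acid lack, 1 was called lower (14.3%, beside 3.85% of all probes) and none higher (beside 3.12%). At an adjusted p under 0.05, 1 was lower and 1 higher (14.3% each, beside 16% and 17.9%). Sesn1, a sestrin that senses leucine, went from 10.00, 9.83 and 9.80 to 9.46, 9.46 and 9.50 (−0.41, standard error 0.056, limma adjusted p = 6.85e-05), while its dimmer probe changed by −0.17. Castor1, the arginine sensor, listed as 2410008K03Rik, was higher by 0.24 (limma adjusted p = 0.00129) and under the fold cutoff. The Sesn1 call was lost with normexp background correction, median scaling, array A alone and without control sample 1, where the change was −0.45, −0.43, −0.37 and −0.34.

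Of 7 tested genes downstream of mTORC1, none was called, 1 was lower and 3 were higher at an adjusted p under 0.05 (14.3% and 42.9%, beside 16% and 17.9% of all probes), which are the 4 with an unadjusted p under 0.05. Rps6, the ribosomal protein whose phosphorylation reports mTORC1 activity, rose by 0.37 (standard error 0.046, limma adjusted p = 3.16e-05), just under the fold cutoff, and was called with median scaling (0.41), with cyclic loess (0.39) and without control sample 3 (0.38). Atf4, a transcription factor of the amino acid response, was lower by a change of −0.26 (limma adjusted p = 0.00831), which was −0.17 without control sample 3 and −0.20 with array B alone (limma adjusted p = 0.0610). An array reads RNA, and phosphorylation was not measured.

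Of 17 tested genes of Tfeb, Tfe3 and their lysosomal targets, 8 were lower (47.1%, beside 16% of all probes) and 2 higher (11.8%, beside 17.9%) at an adjusted p under 0.05. Their median was −0.14, and 1 was called in each direction (5.88%, beside 3.85% lower and 3.12% higher). Lamp2, a lysosomal membrane protein, had the largest fall of the lists, from 11.88, 11.86 and 11.83 to 11.25, 11.16 and 11.18 (−0.66, standard error 0.047, limma adjusted p = 1.39e-07). Its 4 probes ranged from −0.66 to −0.14, and 2 of them were called. Gpnmb, a glycoprotein gene switched on by Tfe3 and Mitf, went from 9.39, 9.36 and 9.32 to 9.93, 9.64 and 9.77 (0.42, standard error 0.064, limma adjusted p = 1.60e-04), but its other tested probe changed by 0.10. Its call was lost without moR-21 sample 1 (0.35), with normexp (0.47) and with median scaling (0.41).

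**Figure D4:**
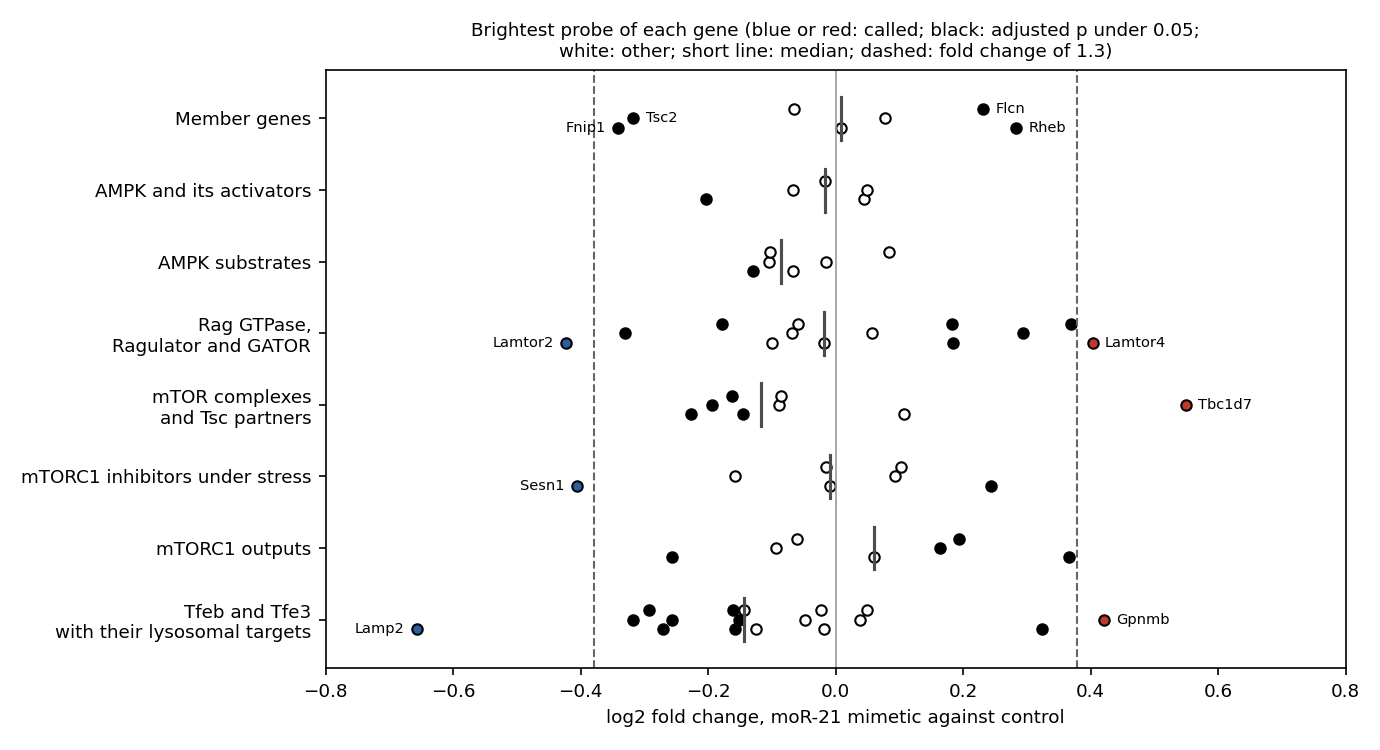
Log2 fold change of the brightest probe of each tested gene, moR-21 mimetic against scrambled control, for the member genes and 7 pathway lists (blue, called lower; red, called higher; black, adjusted p under 0.05 without a call; white, the rest; short lines, medians; dashed lines, a fold change of 1.3). The 6 called genes lie outside the dashed lines in 4 of the lists, and the medians lie between −0.14 and 0.06.

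Markers of the cells moved with the treatment as well. The smooth muscle gene Acta2 was higher by 0.40 to 0.81 over its 4 probes, all called. Tagln was higher by 0.20 (limma adjusted p = 0.00367), but it was detected on only 4 arrays. Its control samples read 6.73, 6.72 and 6.76, no brighter than those of Tsc1, which was near the detection limit. The size of the Tagln rise is therefore uncertain. Des was lower by a change of −0.38, short of the cutoff. Of the 5 fibroblast markers, Lum was called lower (−0.56) and Thy1 higher (0.53), and Pdgfra, Col1a1 and Dcn lay between −0.22 and −0.17. The macrophage marker Cd14 was lower by a change of −0.27 (limma adjusted p = 3.38e-04) and under the fold cutoff, Csf1r differed by −0.01 (limma adjusted p = 0.859), and Ptprc, Cd68, Emr1 and Itgam were detected on no array. Smtn differed by −0.05 (limma adjusted p = 0.626) and Vwf by 0.06 (limma adjusted p = 0.383). Whether the makeup or state of the cultures had a part in the changes of the members was not tested.

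The genes whose brightest probes followed that of Fnip1 most closely over the 6 samples were Prkab2, the β2 subunit of AMPK (Pearson r = 0.997), Ces3 and Rbmx (both 0.995), Fmo4 (0.993) and Sema3a (0.992). These are the highest of 8720 genes compared, of which 148 had r over 0.95, and all points share the 2 treatments and the 8 arrays. Prkab2 was close to the detection limit, and its change was −0.07 (limma adjusted p = 0.275), while Ces3 was called lower (−0.47).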

How the data were processed

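The authors deposited a table of non-normalized probe intensities of Illumina mouse expression BeadChips with a detection p-value beside each. The study's methods name BeadStudio, lumi and limma and more than 1 array design. All columns were assigned to samples by name, and 0 were left without one. No background correction of the deposited intensity values is stated.

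The 8 arrays were quantile normalized together without background correction and log2 transformed, arrays A and B of a sample were averaged, and limma 3.58.1 (lmFit, eBayes; R 4.3.3) compared 3 moR-21 with 3 control samples, with no covariate. The fit covered the 11651 probes with a detection p under 0.01 on at least 1 array, with Benjamini-Hochberg adjustment over all of them. The cutoffs for a call, those of the study, were a fold of 1.3 and an adjusted p of 0.002. A gene was read at its brightest tested probe, and no probe's level was set against another's. The number of arrays limits the precision.

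All member probes are given. Of the pathway lists, called genes are named, with the 2 largest changes at an adjusted p under 0.05. Older array symbols were matched through RefSeq (GRCm38.p6), the source of all coordinates and sequences. The members and lists were chosen with earlier results of these data known. The fit was tested on simulated data whose planted changes were larger than those of the members. That test does not cover changes as small as theirs. The alternatives were normexp background correction (offset 16), median scaling, cyclic loess, a stricter and no detection filter, array A or B alone, 8 arrays with duplicateCorrelation (statmod 1.5.0), a block for the replicate number, eBayes with its trend and robust options, leaving out each sample in turn, the fold cutoff with an adjusted p of 0.05, and a fold cutoff of 1.5. Tables and plots were made with Python 3.11.15, pandas 2.3.3 and matplotlib 3.10.9.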

Additional observations from a re-analysis of the deposited data

How the results depend on the processing

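Member genes were counted at their brightest probe. The count called was 0 as reported and under the alternatives, except that it was 1 without control sample 2. Leaving out 1 sample thus gave 0 to 1. Dimmer probes are not in that count, and those of Fnip1 and Tsc2 were called in some settings. With 1 sample left out, the brightest Fnip1 probe ranged from −0.40 to −0.30 and the dimmer one from −0.44 to −0.29. Array A alone gave −0.44 for the dimmer probe, which was then called. With normexp background correction the brightest Fnip1 probe was −0.39 and the dimmer one −0.49, both past the fold cutoff. Neither was called, with limma adjusted p of 0.0102 and 0.0105. Leaving out 1 sample gave 3 to 4 members with an adjusted p under 0.05 and 5 to 8 pathway genes called, where 6 were called as reported. The latter count was 4 with normexp background correction or with median scaling. With a fold cutoff of 1.5, 1 pathway gene, Lamp2, was called. The difference of Tsc1 turned from 0.00895 to −0.00921 with array A alone. The cause of these shifts was not tested.

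The labels do not say whether equal replicate numbers pair the samples, and the values do not settle it. The correlations of same-numbered samples' deviations from their treatment means were 0.187, 0.044 and 0.060. Those of differently numbered samples ran from −0.129 to 0.069, the highest being control sample 3 with moR-21 sample 2. With the replicate number as a block, 0 members and 6 pathway genes were called, 4 members had an adjusted p under 0.05, and the brightest Fnip1 probe stayed at −0.34 (limma adjusted p = 2.33e-05). No call of a member or a named pathway gene changed with the block.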
